A study of Homo sapiens with 9 samples.

Results

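ICAM1 and 8 further surface ligands that leukocytes use to hold on to other cells were followed in A549 cells overexpressing a long noncoding RNA. The members were the genes named ICAM1, ICAM2, ICAM3, ICAM5, VCAM1, CD58, ALCAM, F11R and CD44 in the deposited count matrix, which lists 58735 genes, and each name matched 1 gene. A549 is an epithelial cell line from a human lung adenocarcinoma. RNA-seq libraries of poly(A) RNA were available from 3 groups of 3 samples each. The control group was transfected with a plasmid that the labels call PC3.1, PC3.2 or PC3.3, 1 name for each replicate, while the study's text names only PC3.1, so whether these were different constructs is unclear. The experimental group 1 overexpressed LINC00996 and the experimental group 2 overexpressed AP001189.3, a noncoding gene whose samples are titled RP11. Plasmids were delivered with the same transfection reagent, so every group used here was transfected, and an untransfected group was not analysed here. RNA extraction was repeated for each sample of a group, and the supplementary methods speak of biological replicates in general terms. Neither says whether the 3 samples of a group came from separately transfected cultures, so p-values measure the spread between these samples, which may be technical. The question was how the RNA of these ligands differed between each overexpressing group and the control group, and between the overexpressing groups.

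Leukocytes stop and migrate by binding their integrins and other receptors to ligands on the cell in front of them. ICAM1, ICAM2, ICAM3 and ICAM5 are immunoglobulin-type ligands of the integrin LFA-1, whose chains are ITGAL and ITGB2, and VCAM1 is the ligand of the integrin with the ITGA4 chain. CD58 binds CD2 on T cells, ALCAM binds CD6, F11R (JAM-A) is a tight junction protein that also binds LFA-1, and CD44 is the receptor of hyaluronan. On epithelial and endothelial cells, ICAM1 and VCAM1 are known as genes that inflammatory cytokines induce through NF-kB.

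The promoters of ICAM1 and VCAM1 are shown because these genes moved most between the groups, and that of CD44 because it was the ligand with the highest level per length. Each line gives the 250 bases before the gene's start in RefSeq, 5′ to 3′ on the gene's strand and on GRCh38.p14, for ICAM1 at chr19:10270870-10271119, for VCAM1 at chr1:100719492-100719741 and for CD44 at chr11:35138921-35139170, each on the plus strand. Capitals mark the motif matches described after them.
ICAM1: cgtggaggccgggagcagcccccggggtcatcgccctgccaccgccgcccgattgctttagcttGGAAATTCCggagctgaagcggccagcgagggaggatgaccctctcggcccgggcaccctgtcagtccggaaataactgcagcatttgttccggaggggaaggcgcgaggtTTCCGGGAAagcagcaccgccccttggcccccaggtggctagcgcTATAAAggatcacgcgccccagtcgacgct
VCAM1: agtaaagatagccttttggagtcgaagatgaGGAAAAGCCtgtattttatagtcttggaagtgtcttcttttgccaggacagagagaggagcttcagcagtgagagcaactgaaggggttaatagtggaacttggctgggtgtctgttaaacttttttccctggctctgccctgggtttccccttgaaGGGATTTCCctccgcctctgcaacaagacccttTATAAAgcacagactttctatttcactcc
CD44: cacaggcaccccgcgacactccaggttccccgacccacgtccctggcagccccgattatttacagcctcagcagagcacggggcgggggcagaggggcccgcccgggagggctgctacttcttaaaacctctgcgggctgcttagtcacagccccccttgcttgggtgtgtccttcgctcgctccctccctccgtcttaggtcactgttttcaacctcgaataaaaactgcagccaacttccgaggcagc

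A window was found in RefSeq for 7 of the 9 members, not for ICAM2 and F11R. The motifs searched were GGNNNTTCC, letters shared by many NF-kB sites, and TTCNNNGAA, the letters of a STAT site, both on either strand, and TATAAA on the gene's strand. ICAM1 held GGAAATTCC, which fits the first motif on both strands, at -186 to -178 from the start. ICAM1 also held TTCCGGGAA at -75 to -67 and TATAAA at -30 to -25. VCAM1 held GGGATTTCC at -62 to -54, a match on the opposite strand, read here as GGAAAAGCC, at -219 to -211, and TATAAA at -29 to -24. CD58 held 1 match to the first motif, on the opposite strand at -81 to -73. No match to the 3 motifs lay in the windows of CD44, ALCAM, ICAM5 and ICAM3. Of the 35116 windows in the table, 17.1% held GGNNNTTCC, 6.57% held TTCNNNGAA and 6.80% held TATAAA, so a match alone is common and shows no binding.

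The libraries held 15272450 to 18125447 counts. LINC00996 was counted 4 to 9 times in a control library and 4373 to 5952 times in a library of its own group, and AP001189.3 0 to 2 times against 1660 to 2378 times, so both plasmids' genes followed the labels. LINC00996 replicate 1 stood apart, with a chi-square per gene of 21.6 and 32.4 against the other replicates of its group, where pairs in the other groups gave 2.24 to 7.11. Its gene levels were related to the GC content of the genes with a Spearman's rho of 0.428, opposite in sign to replicates 2 and 3 of its group (-0.24 and -0.42), and the 3 AP001189.3 libraries (0.204 to 0.353) lay above the 3 control libraries (-0.277 to -0.00363) in this measure. The mitochondrial share of counts was 6.68 to 7.18% in the LINC00996 libraries, 5.26 to 5.66% in control and 5.32 to 5.52% in AP001189.3 libraries, and its part in the LINC00996 differences was not tested. Values without replicate 1 or with an offset for GC content are given where they change a call or move a value. Of the 7 epithelial markers 6 had at least 10 counts in every library, and all 6 were tested. With LINC00996 against control, 3 of them were lower and none higher, where 11.6% and 10.7% of all genes were, CDH1 (E-cadherin, log2 difference -0.89), CLDN4 (-0.95) and KRT19 (-0.40), while KRT8 was at 0.30 and did not pass. With AP001189.3 against control, CLDN4 (0.34, adjusted p = 0.00872) and KRT8 (0.19, adjusted p = 0.00259) were higher and none lower, where 11.4% and 8.49% of all genes were. With all 9 libraries in 1 fit none was called there, where 2.64% of all genes passed. The GC-content offset gave none higher and 2 lower, where 15.4% of all genes passed. The part of these shifts in the changes of the ligands was not tested. Of the 9 leukocyte markers, 6 stayed under 4 counts in every library, including PTPRC (CD45) at 0 or 1 count. The summed leukocyte markers, nearly all from CD14, were 10.2 to 11.6 CPM (counts scaled to the library total and TMM factor) in control libraries. They were 11.4 to 14.1 CPM in LINC00996 and 7.94 to 14.2 CPM in AP001189.3 libraries. Of the 7 endothelial markers 5 stayed under 4 counts, and the summed level, which came almost wholly from PECAM1 and CDH5, was 11.8 to 13.1 CPM in control, 5.42 to 6.66 CPM in LINC00996 and 7.54 to 9.57 CPM in AP001189.3 libraries. The summed fibroblast markers were 23.1 to 26.0 CPM in control, 16.2 to 18.3 CPM in LINC00996 and 21.2 to 24.7 CPM in AP001189.3 libraries, and of the 2 tested COL1A1 was lower with LINC00996 (-0.62). In bulk RNA, fewer cells with a transcript and less of it per cell cannot be told apart.

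Levels per length, as deposited FPKM, put CD44 first in the control group, at 101 ± 1.85 (SD, n = 3). ALCAM at 39.6 ± 1.28 and ICAM1 at 39.0 ± 5.81 followed, with 1 ICAM1 library above and 2 below all ALCAM libraries. CD58 at 14.0 ± 3.38 lay above F11R at 8.86 ± 0.450 with no overlap. VCAM1 was at 1.58 ± 0.205, ICAM5 at 0.718 ± 0.159 and ICAM2 at 0.101 ± 0.0603. ICAM3 was listed at 0. ICAM1 thus supplied 97.5 to 98.5% of the FPKM of the 4 ICAM genes in control libraries, 94.6 to 96.8% in LINC00996 libraries and 97.8 to 98.5% in AP001189.3 libraries. Among the 19951 protein-coding genes, ICAM1 lay at the 95.5th percentile of mean FPKM in control cells, the 84.9th in LINC00996 cells and the 97.0th in AP001189.3 cells.

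**Figure D1:**
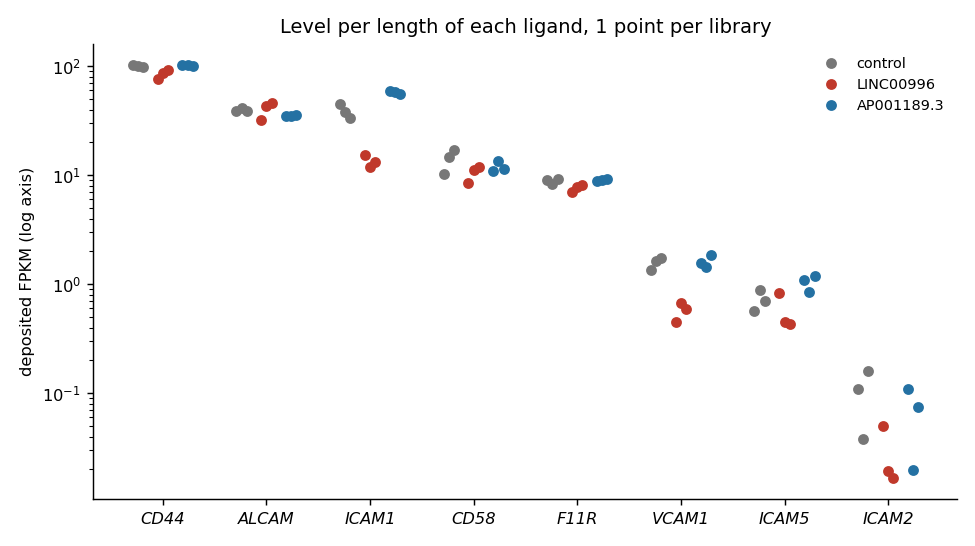
Deposited FPKM on a log axis for the 8 ligands with counts, 1 point per library, in control (grey), LINC00996 (red) and AP001189.3 (blue) cells. The 3 ICAM1 points lay on either side of the ALCAM points in control cells, 1 above and 2 below, and ICAM1 was at 11.9 to 15.4 in LINC00996 cells and at 55.2 to 59.7, above ALCAM, in AP001189.3 cells.

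The order of the ligands changed around ICAM1. In LINC00996 cells its FPKM was 11.9 to 15.4, below that of ALCAM (32.0 to 45.7) and next to that of CD58 (8.46 to 11.8). In AP001189.3 cells ICAM1 stood at 55.2 to 59.7 and ALCAM at 34.9 to 35.9. The CD44 to ICAM1 ratio of FPKM was 2.28 to 2.95 in control, 4.95 to 7.23 in LINC00996 and 1.71 to 1.82 in AP001189.3 libraries, without overlap between the groups. ICAM1 made up 16.8 to 21.7% of the summed FPKM of the 9 genes in control libraries, 7.40 to 10.96% in LINC00996 and 25.7 to 27.3% in AP001189.3 libraries.

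ICAM1 (ENSG00000090339, GRCh38 chromosome 19, 10270835 to 10286615, plus strand) was measured at 168, 142 and 126 CPM in the control libraries. The LINC00996 libraries held 57.8, 44.6 and 49.3 CPM, and the AP001189.3 libraries 224, 214 and 206 CPM. The 3 groups did not overlap, with LINC00996 below and AP001189.3 above the control. On means of 146 ± 21.4, 50.6 ± 6.70 and 215 ± 8.87 CPM (SD, n = 3), ICAM1 RNA was at 0.347 of the control level with LINC00996 and at 1.48 times the control level with AP001189.3. TMM factors (trimmed mean of M-values) were taken over the 9 libraries.

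Differences were tested with edgeR's quasi-likelihood test, fitted on all genes that passed the filter on low counts in the 6 libraries of each comparison, and adjusted p is by Benjamini-Hochberg over those genes. With LINC00996, ICAM1 fell by 1.53 on the log2 scale (SE 0.13, 95% interval -1.81 to -1.24, adjusted p = 1.32e-05). It rose with AP001189.3 by 0.56 (SE 0.09, interval 0.37 to 0.75, adjusted p = 0.00110). LINC00996 against AP001189.3, the direct test of the difference, gave -2.09 (SE 0.11, interval -2.32 to -1.86, adjusted p = 4.42e-07). The comparisons with control share the 3 control libraries. Without LINC00996 replicate 1, ICAM1 differed by -1.63 from control.

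The highest ICAM1 value of each group was that of replicate 1, which in each group also had the highest rho with GC content (-0.00363 in control, 0.428 with LINC00996 and 0.353 with AP001189.3). ICAM1 transcripts have a GC content of 56.9%, against a median of 48.4% over the genes tested. With an offset for GC content, chosen after seeing the data, ICAM1 differed from control by -1.54 with LINC00996 and by 0.44 with AP001189.3 (adjusted p = 6.94e-05). The antisense genes AC011511.2 and AC011511.5 cover 1.65% and 21.99% of the ICAM1 exon bases. They held 0 to 1 and 1 to 15 counts per library against 703 to 3790 for ICAM1, and whether counting used the strand is not given in the sources used here.

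VCAM1 (ENSG00000162692, chromosome 1, 100719742 to 100739045, plus strand), the other cytokine-induced ligand, was at 8.23, 9.96 and 10.7 CPM in control, 2.74, 4.06 and 3.62 CPM in LINC00996 and 9.57, 8.78 and 11.4 CPM in AP001189.3 libraries. The 3 LINC00996 libraries lay below all others, and the other groups overlapped. The counts behind these values were 50 to 67 with LINC00996 and 135 to 188 otherwise. With LINC00996, VCAM1 fell by 1.47 on the log2 scale (SE 0.19, adjusted p = 2.57e-04), to 0.361 of the control mean. With AP001189.3 the difference from control was 0.04 (interval -0.24 to 0.33, adjusted p = 0.868), and 0.18 (adjusted p = 0.416) with the GC-content offset. LINC00996 against AP001189.3 gave -1.52 (SE 0.19, adjusted p = 1.91e-04). Without LINC00996 replicate 1, whose value was the lowest, VCAM1 differed by -1.33 from control, and its GC content was 34.95%.

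**Figure D2:**
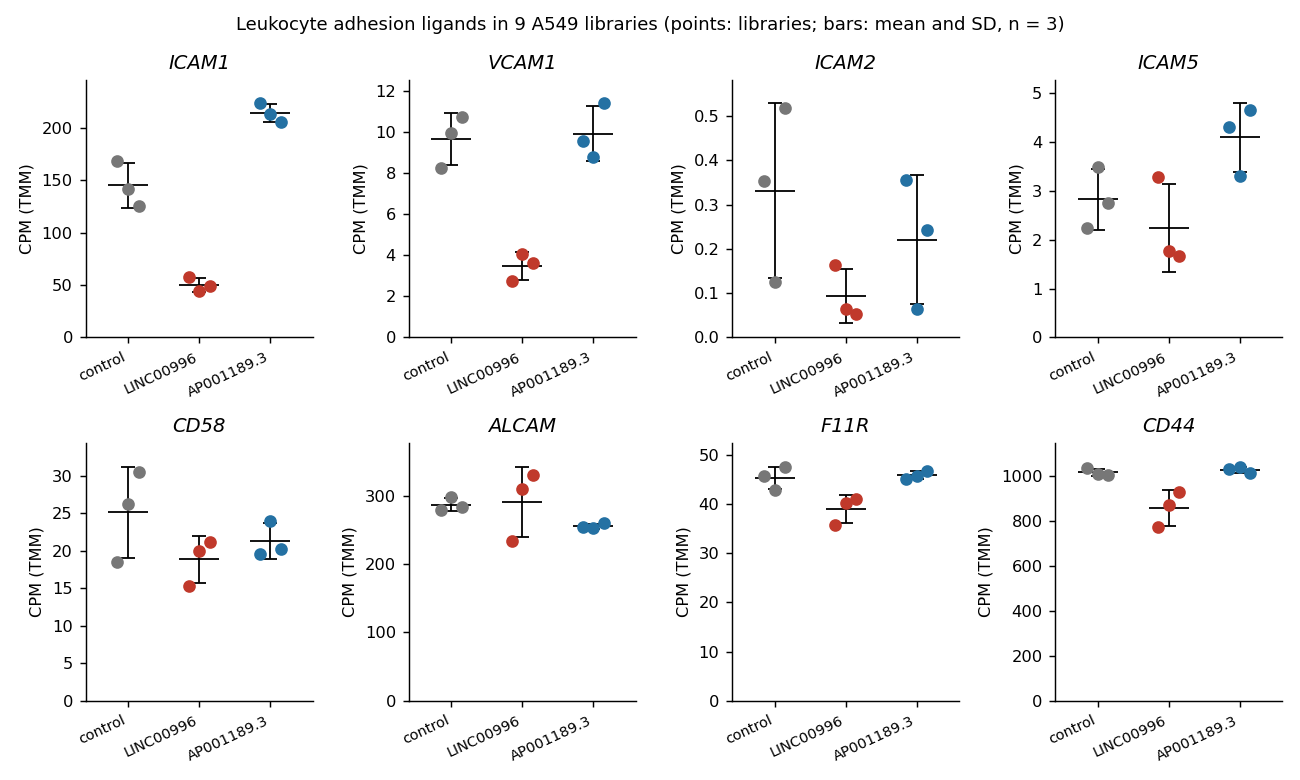
CPM (TMM-scaled) of 8 ligands, 1 panel per gene with its own axis from 0, points for the 3 libraries of each group and bars for mean and SD. ICAM1 separates into 3 levels, with means of 50.6, 146 and 215 CPM, and VCAM1 is low in the LINC00996 libraries alone (2.74 to 4.06 CPM).

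ICAM5 (ENSG00000105376, chromosome 19, 10289981 to 10296778), a neuronal ICAM whose gene lies close to ICAM1, was at 2.23, 3.48 and 2.76 CPM in control, 3.28, 1.78 and 1.68 CPM in LINC00996 and 4.31, 3.32 and 4.67 CPM in AP001189.3 libraries. The control values overlapped those of both other groups, and the LINC00996 libraries lay below the AP001189.3 libraries, replicate 1 by the smallest margin. Neither comparison with control passed the test, with log2 differences of -0.32 (adjusted p = 0.490) and 0.54 (adjusted p = 0.0935). The former was -0.71 (adjusted p = 0.0734) without LINC00996 replicate 1 and -0.15 without replicate 3, and the latter was 0.26 (adjusted p = 0.499) with the GC-content offset. LINC00996 against AP001189.3 gave -0.87 (SE 0.28, adjusted p = 0.0435), and without LINC00996 replicate 1 it gave -1.25 (adjusted p = 2.13e-04). The call was lost with library size alone as scaling (adjusted p = 0.0524) and when LINC00996 replicate 2 (0.141) or 3 (0.113), or AP001189.3 replicate 1 (0.147), 2 (0.0618) or 3 (0.161), was left out.

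ICAM2 (ENSG00000108622, chromosome 17), known from endothelium and platelets, had 6, 2 and 9 counts in control, 3, 1 and 1 in LINC00996 and 6, 1 and 4 in AP001189.3 libraries. It did not pass the filter on low counts, and the opposite-strand gene PRR29, which covers 26.8% of its exon bases, held 13 to 35 counts. ICAM3 (ENSG00000076662, chromosome 19), the ICAM of resting leukocytes, had 0 counts in each of the 9 libraries. A count of 0 allows up to 3 counts, or 0.166 to 0.196 CPM depending on the library, for counting error alone. Of the ICAM3 exon bases 71.2% lie opposite AC114271.1, which had 0 to 2 counts.

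CD58 (ENSG00000116815, chromosome 1), the CD2 ligand, was at 18.5, 26.3 and 30.5 CPM in control, 15.3, 20.0 and 21.2 CPM in LINC00996 and 19.5, 23.99 and 20.2 CPM in AP001189.3 libraries. The control values spread most and overlapped those of both other groups. The differences from control were -0.41 (interval -0.81 to -0.02, adjusted p = 0.128) with LINC00996 and -0.24 (adjusted p = 0.362) with AP001189.3, and between the plasmids -0.18 (adjusted p = 0.435). CD58 passed as lower with LINC00996 against control with no filter on low counts (-0.41, adjusted p = 0.0357) and with the replicate block (-0.40, adjusted p = 0.0206). Between the plasmids the difference was -0.04 without LINC00996 replicate 1, -0.28 without its replicate 3, -0.08 without AP001189.3 replicate 2 and -0.11 with library size alone as scaling. Without control replicate 1, the lowest control, CD58 passed in both comparisons with control (-0.60, adjusted p = 0.0466, and -0.42, adjusted p = 0.00473). Without control replicate 3, the highest control, the differences were -0.25 (adjusted p = 0.450) and -0.08 (adjusted p = 0.761).

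ALCAM (ENSG00000170017, chromosome 3), the CD6 ligand, was at 279, 297 and 284 CPM in control, 233, 310 and 330.5 CPM in LINC00996 and 253, 252 and 259 CPM in AP001189.3 libraries. The AP001189.3 values lay below all control values by a small margin, while LINC00996 replicate 1 lay below and replicates 2 and 3 above the control. ALCAM fell with AP001189.3 by 0.17 on the log2 scale (SE 0.05, adjusted p = 0.0160), and the call was lost with the GC-content offset (-0.08, adjusted p = 0.273), with all 9 libraries in 1 fit (adjusted p = 0.381), without control replicate 2 (0.121) and without AP001189.3 replicate 2 (0.0869). Against control, LINC00996 gave 0.02 (adjusted p = 0.921) with all libraries and 0.16 (adjusted p = 0.0381) without replicate 1, and it turned to -0.02 without replicate 2, -0.08 without replicate 3 and -0.00 without control replicate 1. Between the plasmids the difference was 0.19 (adjusted p = 0.301), and 0.33 (adjusted p = 3.89e-06) without LINC00996 replicate 1 and 0.08 (adjusted p = 0.675) without its replicate 3.

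F11R (ENSG00000158769, chromosome 1) was at 45.6, 42.8 and 47.4 CPM in control, 35.7, 40.1 and 41.0 CPM in LINC00996 and 45.0, 45.7 and 46.6 CPM in AP001189.3 libraries. The LINC00996 values lay below the others, but the differences of -0.22 from control (adjusted p = 0.164) and -0.24 from AP001189.3 (adjusted p = 0.120) did not pass the test. With the GC-content offset the latter passed (-0.22, adjusted p = 0.0241) and the former was at an adjusted p of 0.0515. With AP001189.3 the difference from control was 0.02 (adjusted p = 0.905). The gene AL591806.3 on the same strand shares 36.6% of the F11R exon bases and held 0 to 3 counts, and how reads that fit both genes were counted is not given in the sources used here.

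CD44 (ENSG00000026508, chromosome 11), the hyaluronan receptor, was at 1034, 1009 and 1002 CPM in control, 772, 871 and 927 CPM in LINC00996 and 1031, 1040.0 and 1014 CPM in AP001189.3 libraries. Each LINC00996 library lay below the other 6, with replicate 1 the lowest. The difference of -0.25 from control (SE 0.09, adjusted p = 0.0637) did not pass the test with all libraries and passed without LINC00996 replicate 1 (-0.17, adjusted p = 0.0133) or replicate 3 (-0.31, adjusted p = 0.0320), with all 9 libraries in 1 fit (adjusted p = 0.0218), with the replicate block (0.0418) and with the GC-content offset (-0.22, adjusted p = 0.00486). CD44 was lower with LINC00996 than with AP001189.3 by 0.27 on the log2 scale (SE 0.09, adjusted p = 0.0471). That call was lost with library size alone as scaling (adjusted p = 0.114), with no filter on low counts (0.0671), with an offset for gene length (0.0662), and without LINC00996 replicate 2 (0.128) or AP001189.3 replicate 1 (0.150), 2 (0.174) or 3 (0.146). With AP001189.3, CD44 differed from control by 0.02 (interval -0.08 to 0.11, adjusted p = 0.827). CD44 splice forms cannot be read from counts per gene.

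**Figure D3:**
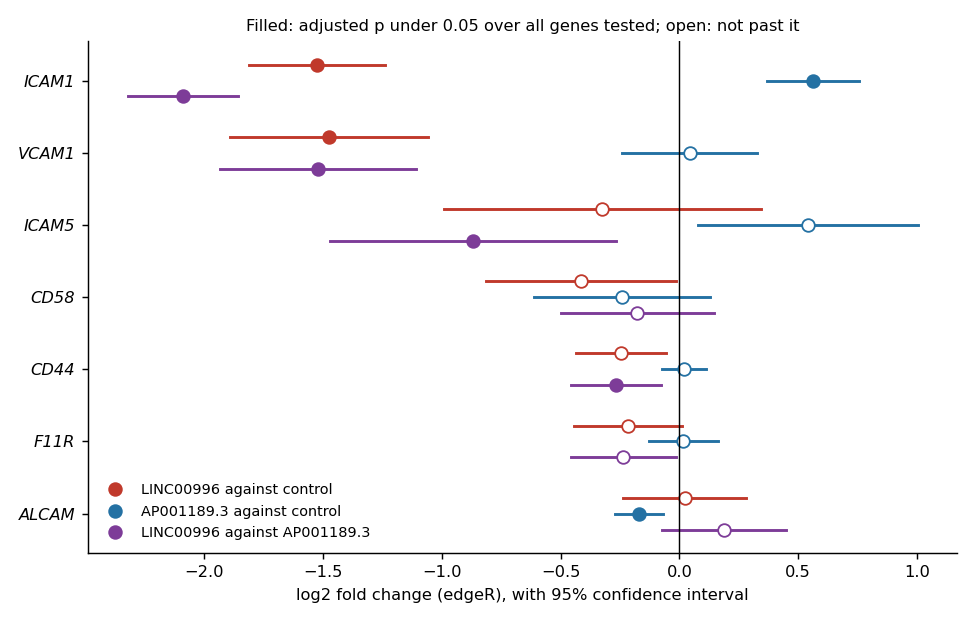
Log2 fold change from edgeR (points) with 95% confidence intervals (lines) for the 7 tested ligands in the 3 comparisons; filled points passed adjusted p under 0.05 over all genes tested. In the comparisons with LINC00996, ICAM1 (-1.53 and -2.09) and VCAM1 (-1.47 and -1.52) lie below the other ligands. With AP001189.3 against control, ICAM1 (0.56) lies next to ICAM5 (0.54), and VCAM1 (0.04) lies among the rest.

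Over the members, 7 of 9 passed the filter on low counts in each comparison. With LINC00996 against control 2 of the 7 passed, ICAM1 and VCAM1, both lower, where 22.3% of all 16097 genes tested passed (10.7% higher, 11.6% lower). The median log2 difference of the 7 was -0.32, against 0.01 over all genes tested. Both members also had an absolute log2 difference of at least 1, which 4.72% of genes combined with passing. With AP001189.3 against control 2 of 7 passed, ICAM1 higher and ALCAM lower, where 19.8% of 16023 genes passed (11.4% higher, 8.49% lower). None of the 7 reached an absolute log2 difference of 1, where 0.986% of genes both passed and reached it, and their median was 0.02, against -0.00 over all genes tested. With LINC00996 against AP001189.3 4 of 7 passed, ICAM1, VCAM1, ICAM5 and CD44, each lower with LINC00996, where 21.4% of 16095 genes passed (9.38% higher, 12.1% lower). Of these, ICAM1 and VCAM1 also had an absolute log2 difference of at least 1, where 4.14% of genes both passed and reached it, and the median of the 7 was -0.27, against 0.02 over all genes tested. Without LINC00996 replicate 1, 4 members passed against control (ICAM1, VCAM1 and CD44 lower, ALCAM higher), where 33.2% of all genes tested passed.

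**Figure D4:**
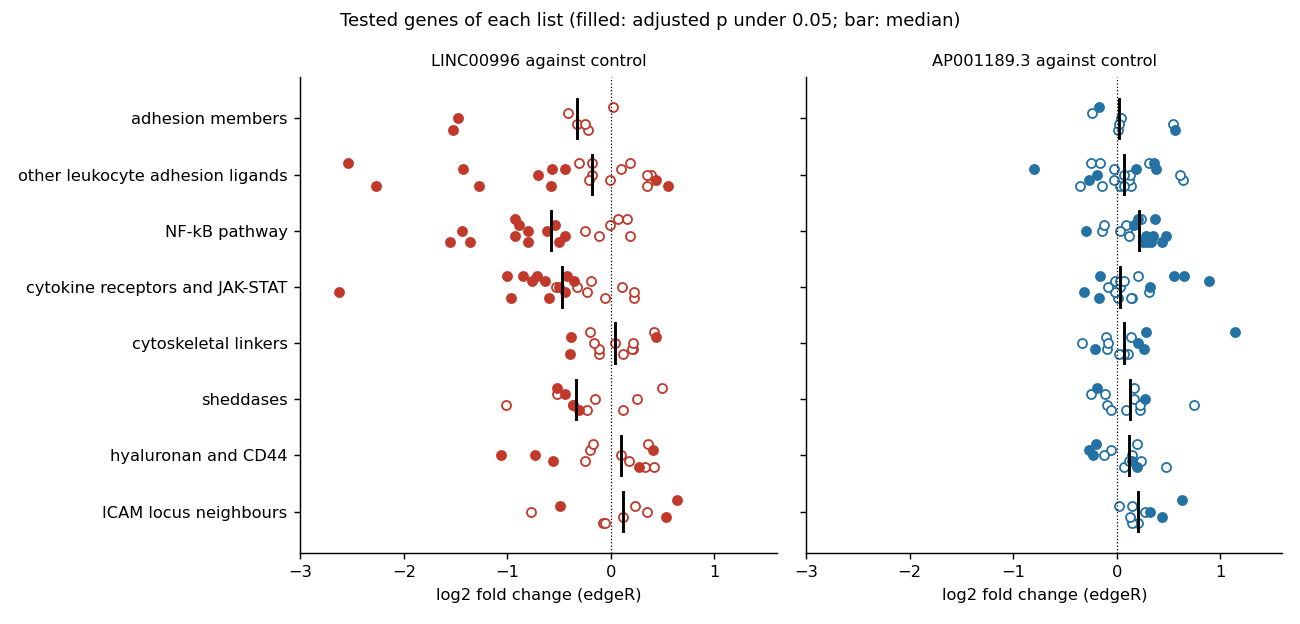
Log2 fold change of each tested gene in 8 gene lists, for LINC00996 (left, red) and AP001189.3 (right, blue) against control; filled points passed adjusted p under 0.05 and bars are list medians. The NF-kB list lies to the left with LINC00996 (median -0.58) and to the right with AP001189.3 (median 0.22).

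The leukocyte receptors that bind these ligands were checked in the same libraries. Of 10 receptor genes 5 had at least 10 counts in every library. CD2, the receptor of CD58, had 0 counts in every library, and ITGAL, the LFA-1 alpha chain, reached at most 8 counts. None of the 5 tested passed with LINC00996 against control in edgeR, where 22.3% of all genes did. ITGB2 (-0.44, adjusted p = 0.0602), ITGB1 (0.24, 0.0766), ITGAM (-0.43, 0.127) and ITGA4 (0.50, 0.225) had the smallest adjusted p. At an unadjusted p under 0.05 edgeR counted 3 of the 5, and 5650 of all 16097 genes. DESeq2 called 1 of the 5 lower, and 22.7% of all genes in either direction. With all 9 libraries in 1 fit, with the GC-content offset and without LINC00996 replicate 1, 1 receptor was called higher and 1 lower. Of all genes, 28.1%, 37.4% and 33.2% passed in these fits. The gene-length offset gave 1 higher, and the replicate block and the fit with no filter on low counts each gave 1 lower. There 22.6%, 28% and 11.9% of all genes passed. With AP001189.3, none of the 6 tested passed in edgeR with all libraries of the comparison or in DESeq2, where 19.8% and 17% of all genes did. Of the 6, 0 had an unadjusted p under 0.05 in edgeR. When AP001189.3 replicate 3 was left out, 1 was called higher, where 13.6% of all genes passed. Between the plasmids ITGB2 was lower with LINC00996 (-0.55, adjusted p = 0.0325), 1 of 5 tested, where 12.1% of all genes were lower. That call was lost when any 1 AP001189.3 library, or LINC00996 replicate 2 or 3, was left out. In those fits 11.2 to 20% of all genes passed.

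A list of 27 other ligands and adhesion molecules that leukocytes bind was followed beside the members. Of 21 tested with LINC00996 against control, 8 were lower and 2 higher, with a median of -0.19, where 11.6% and 10.7% of all genes were. PECAM1, which binds itself between endothelial cells and leukocytes, fell from 8.11 ± 0.678 to 3.03 ± 0.521 CPM (adjusted p = 2.84e-04). SELE (E-selectin), a cytokine-induced selectin, fell from 4.23 ± 0.647 to 0.863 ± 0.424 CPM, and CD34, a sialomucin, from 2.13 ± 0.366 to 0.357 ± 0.165 CPM (adjusted p = 4.57e-04 and 7.61e-04). CD47, the signal that keeps macrophages from engulfing a cell, fell from 232 ± 11.3 to 143 ± 22.2 CPM (adjusted p = 0.00120). These low levels of PECAM1, SELE and CD34 stand beside 5 endothelial markers at or near 0 in all groups (VWF, KDR, TEK, ERG and CLDN5, at most 3 counts), while CDH5 was at 4.13, 2.95 and 3.86 CPM in control, LINC00996 and AP001189.3 cells. With AP001189.3, 3 of 21 were higher and 3 lower, where 11.4% and 8.49% of all genes were. With all 9 libraries in 1 fit 1 was higher and 1 lower, where 2.64% of all genes passed. In the fits without control replicate 2 or without AP001189.3 replicate 2 or 3, 1 was lower, where 679 to 847 genes were. NECTIN2, a ligand of DNAM-1 on T and NK cells, rose from 372 ± 32.8 to 484 ± 5.35 CPM (adjusted p = 1.53e-05), and CD99 rose from 190 ± 16.2 to 243 ± 19.9 CPM (adjusted p = 4.77e-04), while PECAM1 fell here too (-0.80, adjusted p = 7.03e-04). NECTIN2 fell with LINC00996 (-0.57, adjusted p = 0.00228). ICAM4, SELP and CD48 had 0 counts in every library.

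Of 18 NF-kB pathway genes, 12 fell and none rose with LINC00996 against control, and 10 rose and 1 fell with AP001189.3. The medians were -0.58 and 0.22, and 11.6% of all genes tested were called lower in the first comparison and 11.4% higher in the second. TNFAIP3 (A20), a feedback inhibitor of NF-kB, fell with LINC00996 by 1.36 on the log2 scale and rose by 0.25 with AP001189.3 (adjusted p = 2.36e-06 and 0.00110). TRAF1, an adaptor of TNF receptors, fell by 1.55 and rose by 0.33 (adjusted p = 1.65e-05 and 0.00252). BIRC3, a ubiquitin ligase that limits cell death, fell by 1.44 (adjusted p = 1.54e-05) and TNIP1, which binds A20, fell by 0.93 (adjusted p = 2.30e-05), while with AP001189.3 they stood at 0.03 (adjusted p = 0.689) and 0.12 (adjusted p = 0.108). RELB, a subunit of NF-kB, and BCL3, an atypical inhibitor protein, rose with AP001189.3 by 0.47 and 0.37 (adjusted p = 2.24e-06 and 8.68e-05). Over the 15 alternatives of the LINC00996 comparison with control, 10 to 14 of the 18 fell. It was 14 without LINC00996 replicate 1, where 2860 of 16508 genes were lower. In the AP001189.3 comparison the count was 7 higher and 1 lower with the GC-content offset, where 15.4% of all genes passed. It was 2 higher and none lower with all 9 libraries in 1 fit, where 2.64% passed.

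Of 20 tested genes for cytokine receptors and JAK-STAT signaling, 12 fell and none rose with LINC00996, with a median of -0.47, where 11.6% of all genes were lower. TNFRSF1B, the second TNF receptor, fell from 50.9 ± 6.48 to 8.23 ± 1.43 CPM (adjusted p = 9.52e-07). IRF1, a transcription factor induced by interferon gamma, fell by 1.00 on the log2 scale, and the receptor chains IFNGR2 and IFNGR1 by 0.96 and 0.72 (adjusted p = 2.07e-05, 2.90e-05 and 3.17e-04). With AP001189.3, 4 rose and 3 fell, where 11.4% and 8.49% of all genes did. IRF1 rose by 0.56 (adjusted p = 2.54e-08), SOCS3, a feedback inhibitor, by 0.65 (adjusted p = 2.77e-08) and STAT2 by 0.32 (adjusted p = 2.40e-05), whereas IFNGR1 and IFNGR2 fell by 0.16 and 0.17 (adjusted p = 0.0197 and 0.0420). None was lower there with all 9 libraries in 1 fit, where 93 of 16560 genes were. In the fits without control replicate 2 or without AP001189.3 replicate 2 or 3, 1 was lower, where 679 to 847 genes were. IL1RL1 had 0 counts in every library. With LINC00996, 7 were lower when control replicate 2 was left out, 13 without LINC00996 replicate 1 and 16 with the GC-content offset. Of all genes tested, 1122 of 16575, 2860 of 16508 and 2921 of 16090 were lower in these fits.

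Further lists held proteins that tie these ligands to the cytoskeleton or cut them off the cell surface. Of 13 cytoskeletal linkers 2 fell (AFDN, -0.40, adjusted p = 0.0126, and TJP1, -0.39, adjusted p = 0.0324) and 1 rose (NF2, 0.44, adjusted p = 0.0273) with LINC00996, where 22.3% of all genes passed, and ACTN1, which binds the ICAM1 tail, was at -0.20 (adjusted p = 0.111). Without control replicate 1, none of the 13 was called, where 12.6% of all genes passed. The GC-content offset gave 4 lower and 3 higher, where 37.4% of all genes passed. With AP001189.3, 4 rose and 1 fell, where 11.4% and 8.49% of all genes did, among them ACTN1 (0.28, adjusted p = 2.12e-04), CTTN (0.26, adjusted p = 5.81e-04) and MSN (0.21, adjusted p = 0.00333). With all 9 libraries in 1 fit, none passed in that comparison, where 2.64% of all genes did. Of 12 tested sheddases and their inhibitors 4 fell and none rose with LINC00996, where 11.6% and 10.7% of all genes did. They were the inhibitor TIMP1 (-0.52, adjusted p = 0.00160) and the proteases ADAM17 (-0.45, adjusted p = 0.0140), MMP7 (-0.30, adjusted p = 0.0295) and ADAM10 (-0.37, adjusted p = 0.0350). Of the list, 1 gene was lower without control replicate 2 or 3, where 1122 of 16575 and 1250 of 16533 genes were. It was 6 without LINC00996 replicate 1, where 2860 of 16508 genes were lower. With AP001189.3, ADAM15 rose (0.27, adjusted p = 9.96e-04) and TIMP1 fell (-0.19, adjusted p = 0.0103), 1 of 12 in each direction, where 11.4% of all genes rose and 8.49% fell. Neither direction held a call with all 9 libraries in 1 fit, where 2.64% of all genes passed. None was higher with the GC-content offset (1220 of 16016 genes were), and none was lower without control replicate 2 or without AP001189.3 replicate 2 or 3 (679 to 847 genes were).

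Around CD44, 13 genes of hyaluronan handling and CD44 ligands or splicing were tested, of which 3 fell and 2 rose with LINC00996, where 11.6% and 10.7% of all genes did. SRGN, a proteoglycan core that CD44 can bind, fell from 206 ± 10.6 to 99.0 ± 16.1 CPM (adjusted p = 8.80e-05). HAS3, a hyaluronan synthase, fell by 0.73 on the log2 scale (adjusted p = 2.02e-04) and CEMIP, which degrades hyaluronan, by 0.56 (adjusted p = 0.00360). KHDRBS1, a splicing factor that acts on CD44, rose by 0.27 (adjusted p = 0.0360) and HMMR, another hyaluronan receptor, by 0.41 (adjusted p = 0.0382). None was higher when any 1 control library, or LINC00996 replicate 2 or 3, was left out, where 803 to 1875 of all genes were. It was 4 with the GC-content offset or without LINC00996 replicate 1, where 3094 of 16090 and 2621 of 16508 genes were higher. With AP001189.3, 2 rose and 3 fell, including HMMR (-0.27, adjusted p = 0.0197) and SPP1 (osteopontin, -0.20, adjusted p = 0.00813), where 19.8% of all genes passed. None of the 13 passed there with all 9 libraries in 1 fit, where 2.64% of all genes did. None was lower with the GC-content offset, where 1243 of 16016 genes were. LYVE1, the lymphatic hyaluronan receptor, had 0 counts.

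Genes near ICAM1 on chromosome 19 were followed as well. Of 9 tested, 2 were higher (MRPL4, 0.53, adjusted p = 0.0208, and CDC37, 0.64, adjusted p = 0.0417) and 1 lower (PDE4A, -0.49, adjusted p = 0.0381) with LINC00996, with a median of 0.11, where 10.7% and 11.6% of all genes were, and S1PR2 was at -0.77 (adjusted p = 0.0518). None of the 9 was called when any 1 control library was left out, where 11.6 to 13.1% of all genes passed. The GC-content offset gave 4 higher and 2 lower, where 37.4% of all genes passed. With AP001189.3, 3 were higher, MRPL4 (0.43, adjusted p = 0.00352), CDC37 (0.63, adjusted p = 0.00328) and KRI1 (0.32, adjusted p = 0.0395), and none lower, where 11.4% of all genes were higher. With all 9 libraries in 1 fit none was called, and with the GC-content offset 1, where 2.64% and 15.4% of all genes passed.

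Across the 9 libraries, the genes whose log2 CPM was most like that of ICAM1 were IFITM3 (Pearson r 0.997), TNFRSF10B (0.997), CDK18 (0.995), UBE2L6 (0.994) and RELA (0.994), among 14626 genes compared. The points are 3 groups of 3 libraries, so r mainly follows the group means and is a description. RELA, the p65 subunit of NF-kB, was at 197 ± 16.1 CPM in control, 114 ± 8.70 in LINC00996 and 241 ± 19.4 in AP001189.3 cells. IFITM3, an antiviral membrane protein, and UBE2L6, the conjugating enzyme for ISG15, differed from control by -0.70 and -0.53 with LINC00996 and by 0.31 and 0.21 with AP001189.3. TNFRSF10B, a TRAIL receptor, was at -0.28 and 0.08, and the kinase CDK18 at -1.04 and 0.30. Among the members, r with ICAM1 was 0.893 for VCAM1, 0.831 for CD44, 0.789 for F11R, 0.732 for ICAM5, 0.279 for CD58 and -0.465 for ALCAM.

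**Figure D5:**
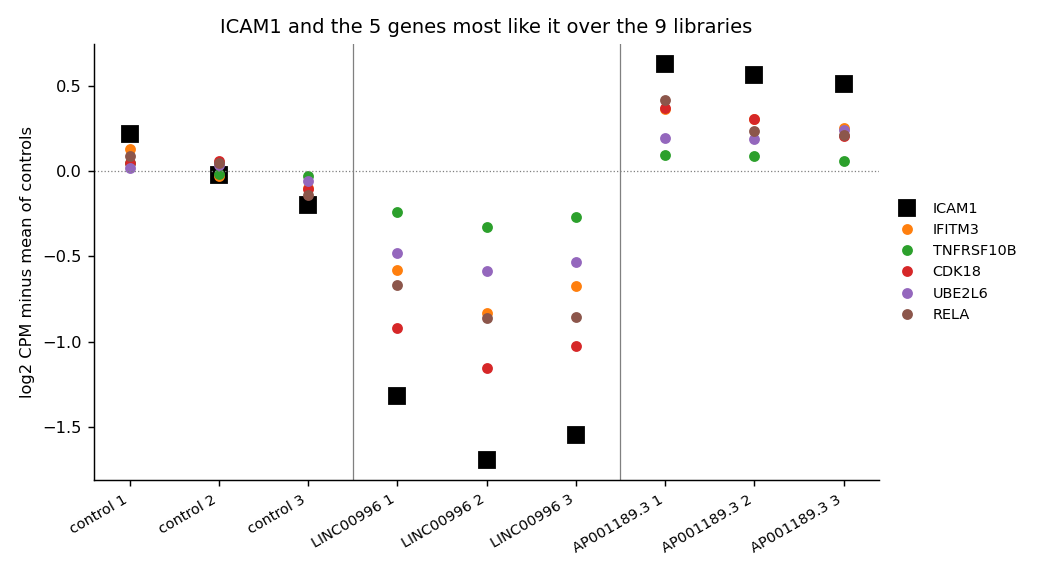
Log2 CPM minus the mean of the 3 control libraries for ICAM1 (black squares) and the 5 genes most like it, in each of the 9 libraries. ICAM1 moved furthest of the 6, from -1.69 to -1.32 in the LINC00996 libraries and from 0.51 to 0.63 in the AP001189.3 libraries.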

How the data were processed

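RNA of transfected A549 cells was extracted with Trizol and sequenced as paired-end reads of poly(A) RNA. Per the labels and the study's methods, the authors aligned reads with HISAT2 2.0.5 and made the deposited raw counts per gene with featureCounts 1.5.0-p3 on GRCh38; the submitters' processing notes also name DESeq2 1.20.0 and edgeR 3.22.5. The deposited FPKM values, made by the authors from counts and gene length, were used for levels between genes only. Gene coordinates equalled those of GENCODE 29 for 58735 of 58735 genes.

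Raw counts were tested with edgeR 4.0.16 in R 4.3.3 (filterByExpr, TMM, robust quasi-likelihood fit of the 6 libraries of a comparison, Benjamini-Hochberg adjusted p under 0.05 over all genes tested). Likeness used log2 CPM with a prior count of 2 and genes whose mean reached 1 CPM. The scripts were tested on simulated counts. Alternatives were DESeq2 1.42.0, other scalings and filters, all 9 libraries in 1 fit, a replicate block, an offset for gene length, a further threshold on fold change and leaving out each library. An offset for GC content (loess, span 0.75) was added after seeing the data.

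The members and gene lists were chosen with earlier results of these data known. All 9 members are named. Of each list the text names up to 4 genes with the smallest adjusted p for LINC00996 against control, up to 2 more for AP001189.3 against control and receptors or markers below 4 counts. The 5 genes most like ICAM1 are named by Pearson r. ITGAL, ICAM4, SELP, CD48 and the alternatives' single calls were named after their values were seen. Promoter windows came from RefSeq (GRCh38.p14). Depth was 15272450 to 18125447 counts per library. Limits from a count of 0 cover counting error only.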

Additional observations from a re-analysis of the deposited data

Results flagged for a closer look

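The effects of LINC00996 and AP001189.3 on 4 ligands differed in the direct comparison of the overexpressing groups, which does not use the control libraries. For ICAM1 the log2 difference, LINC00996 against AP001189.3, was -2.09. For VCAM1 it was -1.52. For ICAM5 it was -0.87 and for CD44 -0.27, and both of these lay near the threshold, so that leaving out any AP001189.3 library ended the call. ICAM1 and VCAM1 kept an adjusted p under 0.05 in each of the 15 alternatives of that comparison, of which 1 used DESeq2 and the others edgeR.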

How the results depend on the processing

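ICAM1 kept its direction and its call in all 15 alternatives of each comparison (-1.63 to -1.41 for LINC00996 over control, 0.44 to 0.68 for AP001189.3 over control, -2.19 to -1.98 for LINC00996 over AP001189.3). VCAM1 kept its calls in both comparisons with LINC00996 likewise. The threshold on fold change, named next, is not among the 15. Main counts of called genes were 3588 for LINC00996 over control, 3180 for AP001189.3 over control and 3452 for LINC00996 over AP001189.3, and of called members 2, 2 and 4. A further threshold of 1 on the absolute log2 fold change left 759, 158 and 666 genes in these comparisons, and 0 and 2 members in the latter ones. The GC-content offset gave 6015 and 5976 genes in the comparisons with LINC00996, and 1 member for AP001189.3 against control. All 9 libraries in 1 fit gave 437 genes and 1 member for AP001189.3 against control. Library size alone gave 2 members for LINC00996 against AP001189.3, and there turned 1510 higher and 1942 lower genes into 2129 and 1666 (2101 and 1792 with the gene-length offset). Library size alone also turned 1722 higher and 1866 lower genes into 2006 and 1669 for LINC00996 against control, and 1819 and 1361 into 1608 and 1724 for AP001189.3 against control. Leaving out 1 library gave 1925 to 5481 genes and 2 to 4 members for LINC00996 against control, 1914 to 3598 and 1 to 3 for AP001189.3 against control, and 1840 to 6828 and 2 to 5 for LINC00996 against AP001189.3. The highest counts of the comparisons with LINC00996 were those without its replicate 1 (5481 and 6828). These fits held fewer libraries, and the cause of the changes was not tested. The replicate block gave 4 members for LINC00996 against control (CD58 and CD44 added, both lower) and 4500 genes. The labels do not say that the replicate numbers mark a shared culture or day, so the numbers were not taken as pairs. Same-numbered samples correlated at -0.0204 to 0.149 and differently numbered ones at -0.123 to 0.0449. Not every library correlated best with its own number, and whether same-numbered samples shared a batch was not tested. ICAM2 entered only without a filter on low counts (adjusted p = 0.310 for LINC00996 against control), and at 1 to 9 counts depth limits what can be seen.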
